A study of Mus musculus with 32 samples.

Results

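Solute carriers are membrane proteins that move ions, metals, nutrients and metabolites across the plasma membrane, the mitochondrial inner membrane and the membranes of lysosomes and the Golgi. Members were all genes of the count tables whose symbol begins with Slc and a digit, without pseudogenes and without the fructose carrier gene Slc2a5. By this rule 196 of the 13377 gene identifiers in the table of female libraries and 186 of the 11999 in the table of male libraries were members. Of these, 184 were in both tables, 12 were listed in the female table only and 2 in the male table only (Slc35g1 and Slc9a3r2). Slc26a6, Slc30a1 and Slc30a4 each had a second identifier with identical counts and were counted once, which left 193 members in the female table, 183 in the male table and 195 in either. The symbol rule also took in 4 genes that are not carriers themselves, such as the scaffold gene Slc9a3r1.

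RNA was sequenced from microglia sorted from mouse spinal cord at day 14, in 32 libraries. The genotype is given as Cx3Cr1-Cre;Rosa26-iDTR for every library. In this line Cre is driven from the fractalkine receptor gene, and after tamoxifen the cells that express it become sensitive to diphtheria toxin. Other cells with Cx3cr1, such as macrophages, can carry the receptor too. Resident libraries came from mice labelled as not depleted, and repopulated libraries from mice whose microglia had been removed with the toxin and had returned. Each state was sampled without injury and with a fracture. Among females there were 4 resident libraries without and 4 with fracture, and 3 repopulated libraries without and 4 with fracture. Among males there were 3 and 5 resident and 2 and 7 repopulated libraries. Sample descriptions call the resident libraries Wt and the others Dt (females) or iDTR (males) although the genotype label is shared. An effect of repopulation therefore cannot be told apart from one of genotype or toxin. The labels do not state that replicates were separate mice, so p-values measure the spread between libraries, which may in part be technical. The sexes were prepared with different library kits and listed in separate tables, so they were analysed apart and no level is compared across tables.

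Carriers are grouped into families by sequence rather than by cargo, and a family can serve several compartments. Macrophages, and microglia among them, take up dying cells and debris, and so hold carriers that clear iron, nucleosides, amino acids and sugars from lysosomes and carriers that export iron from the cell. Amino acid exchangers of the Slc7 family need the heavy chain encoded by Slc3a2, and carriers of the Slc25 family sit in the mitochondrial inner membrane.

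Total estimated counts were 16438827 to 18654165 per female library and 5722993 to 33697535 per male library, and members took 1.405% to 1.492% and 1.294% to 1.432% of them. All 10 microglial markers examined were listed in both tables, and they summed to 43330 to 52400 CPM in female and 52690 to 67630 CPM in male libraries. Over both fracture states Tmem119, P2ry12 and Cx3cr1 were called lower and C1qa higher in both tables, with Sall1 lower and Trem2 higher in the female and Fcrls lower in the male table. Markers of macrophages of circulating origin were higher in repopulated libraries. The 4 listed of 7 (Lyz2, Ms4a7, Pilra and Clec12a) summed to 538 to 938 CPM in female resident libraries and 1178 to 2193 CPM in repopulated ones. The 5 listed in the male table summed to 352 to 884 CPM and 781 to 1909 CPM, and the defining genes Ccr2 and Ly6c2 were not listed in either. All 4 female and 4 of the 5 male markers were called higher over both fracture states. Summed B cell markers were lower, at 489 to 624.9 CPM in female resident and 343 to 461 CPM in repopulated libraries and at 429 to 543 and 312 to 451 CPM in male ones, with Cd79a and Ms4a1 not listed. Oligodendrocyte markers summed to 180 to 405 CPM, and astrocyte, endothelial and neuronal markers to at most 24.4, 41.6 and 11.9 CPM in any library. Some single markers of other cells were called over both states. Endothelial Pecam1 was lower and Kdr higher in both tables, and the neutrophil marker Csf3r was higher in both. Csf3r was the only neutrophil marker listed, as S100a8, S100a9, Ly6g and Retnlg were in neither table. Mrc1 of border macrophages and Cspg4 of oligodendrocyte precursors were higher in the female table. Cspg4 was the only precursor marker listed there, and the border macrophage markers Cd163, Lyve1 and Cbr2 were not listed. The part of these other cells in the differences given here was not tested, and in bulk RNA fewer cells of a type and less RNA per cell cannot be told apart. CPM is the usual count relative to the library total, scaled by the TMM factor.

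Most members were not called as different between repopulated and resident microglia, and the share called was close to that of all genes in most comparisons. Differences are log2 fold changes, repopulated minus resident, from edgeR's quasi-likelihood F test, and a gene was called at a Benjamini-Hochberg adjusted p below 0.05 over all genes. Without fracture, 6 of the 193 female members (3.11%) were called, beside 2.53% of all genes. Of these 4 were higher, where 1.56% of all genes were, and 2 were lower, where 0.964% were. With fracture 4 members (2.07%) were called against 2.35% of all genes, with 2 higher (all genes 1.27%) and 2 lower (all genes 1.08%). Averaged over both fracture states, 17 members (8.81%) were called against 8.52% of all genes, 9 higher (all genes 4.43%) and 8 lower (all genes 4.09%). Their median log2 change was 0.01 and that of all genes −0.01.

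Among males 15 of 183 members (8.2%) were called without fracture, beside 7.42% of all genes, 8 of them higher (all genes 4.7%) and 7 lower (all genes 2.72%). With fracture 12 (6.56%) were called against 4.91%, 6 higher (all genes 3.03%) and 6 lower (all genes 1.88%). Over both fracture states 32 members (17.5%) were called against 12.8% of all genes, 18 higher (all genes 7.14%) and 14 lower (all genes 5.68%). The members' median was −0.02, as was the median of all genes. Scaled by library totals alone, the calls over both states split into 5 higher and 15 lower in the female table and 12 higher and 20 lower in the male table, while the median of all genes moved to −0.104 and −0.088. Resident and repopulated groups did not overlap for 22 of 193 female members without and 29 with fracture. Among males this held for 79 of 183 members without fracture, with 3 and 2 libraries, and for 10 with fracture. Separation of the male groups without fracture, noted for members below, therefore says little about a single member. The share over all genes was not computed, so these counts are no result about members in particular. Separation noted below for single members, in either table and state, describes their values only.

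The plot of differences by substrate class shows that called members lay in most classes and in both directions. Among females the classes with the most calls over both states were metals, with 3 of 25 members (12%), and mitochondrial carriers, with 3 of 38 (7.9%), near the 8.52% of all genes. Among males they were metals, with 8 of 25 (32%), and amino acids and peptides, with 6 of 26 (23.1%), beside 12.8% of all genes. No member of the class of fatty acid and acyl carriers (4 female and 3 male members) or of phosphate and sulphate carriers (4 in each) was called in either.

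**Figure D1:**
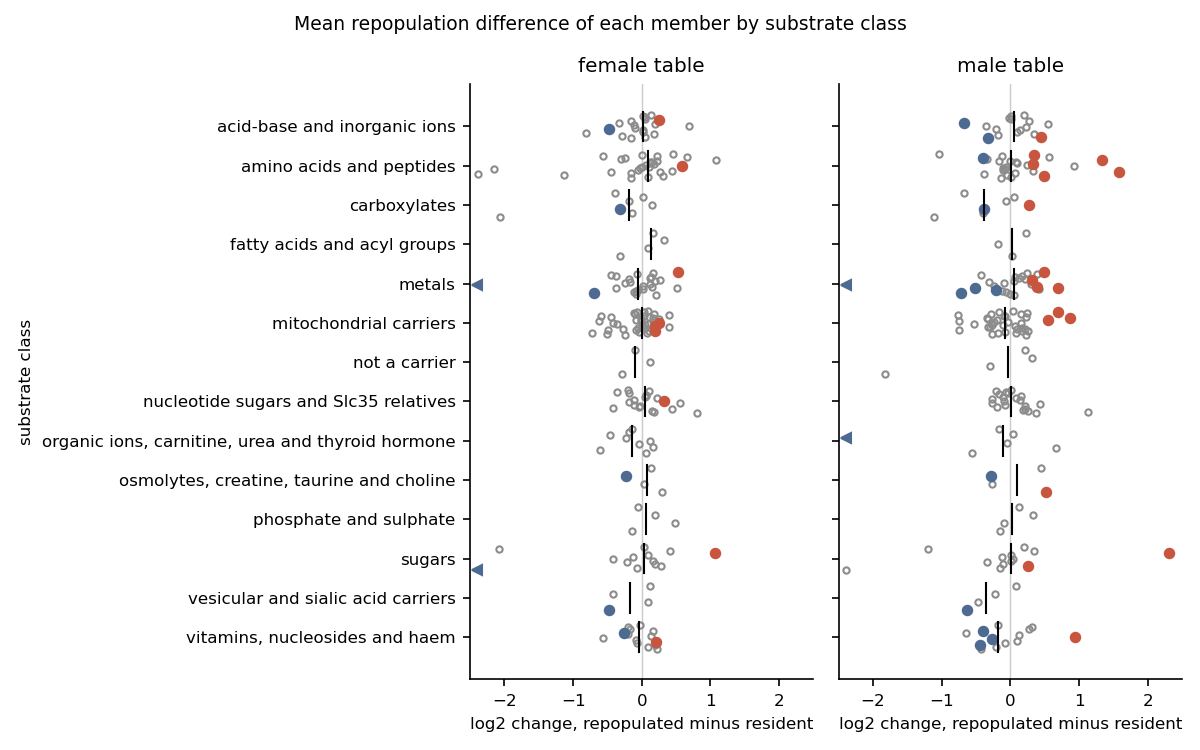
Log2 change from resident to repopulated, averaged over both fracture states, for every member by substrate class, in the female table (left) and the male table (right). Filled red points were called higher, filled blue points called lower, and open points were not called. Black ticks are class medians, and triangles at the left edge are called members beyond the axis. Male Slc5a10, not called and at −3.14, is drawn as an open point at the left edge.

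Iron and other metals. The iron exporter gene Slc40a1 (ferroportin, the one known cellular exporter of iron) fell and Slc11a1, whose product pumps iron and manganese out of the phagosome in macrophages, rose with repopulation. They were the 2 members called in all 4 comparisons of repopulated with resident microglia. Slc40a1 had 254, 352, 240 and 280 CPM in female resident libraries without fracture and 149, 177 and 164 CPM in repopulated ones. With fracture the values were 303, 302, 278 and 320 CPM against 200, 193, 237 and 162 CPM. Every repopulated library was below every resident one in both states. The log2 change was −0.79 ± 0.13 (SE) without fracture (adjusted p = 0.0098) and −0.60 ± 0.12 with fracture (adjusted p = 0.017).

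Male libraries had 282, 366 and 353 CPM of Slc40a1 in the resident and 176 and 194 CPM in the repopulated group without fracture. With fracture it had 301, 316, 299, 284 and 292 CPM in resident libraries, and the 7 repopulated ones ranged from 135 to 262 CPM with a median of 199. The groups again did not overlap. Slc40a1 fell by 0.85 ± 0.19 and by 0.58 ± 0.12 on the log2 scale (adjusted p = 0.0061 and 0.0043). Leaving out 1 library ended the female call without fracture when repopulated replicate 1 was left out (adjusted p = 0.052). It ended the female call with fracture when resident replicate 1 or 4 was left out (at most 0.055), and the male call without fracture when repopulated replicate 1 was left out (0.075). The change averaged over both states, −0.70 ± 0.09 and −0.72 ± 0.11, was called in every such omission.

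Slc11a1 had 613, 528, 788 and 513 CPM in female resident libraries without fracture and 1002, 811 and 824 CPM in repopulated ones. With fracture it had 559, 525.7, 545 and 591 CPM against 799, 845, 815 and 765 CPM. The lowest repopulated library stood above the highest resident one in each state, by a narrow margin without fracture. Male values were 426, 401 and 448 CPM against 555 and 647 CPM without fracture, and 423, 413, 413, 401 and 423 CPM against a range of 541 to 620 CPM (median 576, n = 7) with fracture. Slc11a1 rose by 0.53 ± 0.12 and 0.54 ± 0.11 in the female table (adjusted p = 0.031 and 0.019) and by 0.50 ± 0.09 and 0.48 ± 0.06 in the male table (adjusted p = 0.00081 and 3.6e-05). The female calls in the single states held in 9 of 15 and 10 of 15 omissions of 1 library, with adjusted p up to 0.15 and 0.064. The male calls and the change over both states held in every omission. The sums of markers of circulating macrophages given above were higher in the same repopulated libraries, and their part in the rise of Slc11a1 was not tested. The plot of these carriers by library shows the opposite shifts.

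**Figure D2:**
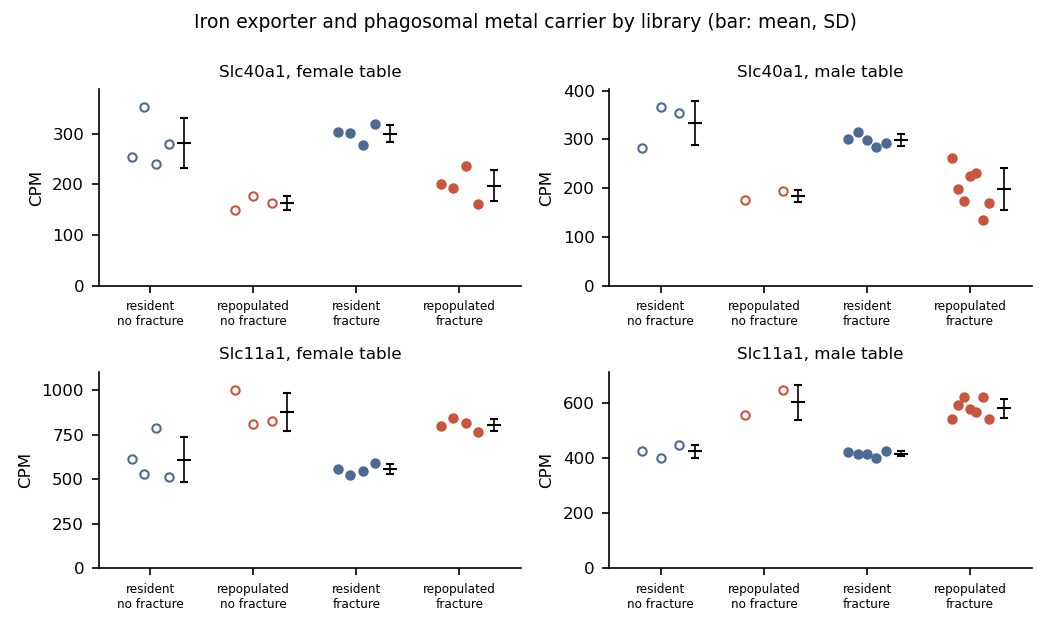
CPM of Slc40a1 (top) and Slc11a1 (bottom) in every library, by group, in the female table (left) and the male table (right). Points are libraries, open without and filled with fracture, and bars are the mean with its SD. Repopulated libraries lie below all resident ones for Slc40a1 and above all resident ones for Slc11a1 in each fracture state.

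The promoters of Slc11a1 and of 2 further genes called in both tables, the hexose carrier gene Slc2a6 and the choline carrier gene Slc44a2, are shown as the sequences upstream of genes that moved in opposite directions. They run from 250 bases before to 50 bases after the start in RefSeq (GRCm38.p6), at chr1:74374953-74375252 on the plus strand, chr2:27027949-27028248 on the minus strand and chr9:21320469-21320768 on the plus strand. Capitals mark a match to an antioxidant response element.
Slc11a1: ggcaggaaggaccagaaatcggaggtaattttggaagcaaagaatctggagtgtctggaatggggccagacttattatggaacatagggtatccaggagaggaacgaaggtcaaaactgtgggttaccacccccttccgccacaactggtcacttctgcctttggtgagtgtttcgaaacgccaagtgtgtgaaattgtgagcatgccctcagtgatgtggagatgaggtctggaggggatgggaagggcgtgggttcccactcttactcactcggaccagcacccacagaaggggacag
Slc2a6: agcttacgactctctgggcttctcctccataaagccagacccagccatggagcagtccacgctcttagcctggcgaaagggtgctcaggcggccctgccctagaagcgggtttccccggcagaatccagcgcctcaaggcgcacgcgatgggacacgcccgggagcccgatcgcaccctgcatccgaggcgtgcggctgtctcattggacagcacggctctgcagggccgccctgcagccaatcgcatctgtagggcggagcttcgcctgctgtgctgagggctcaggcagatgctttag
Slc44a2: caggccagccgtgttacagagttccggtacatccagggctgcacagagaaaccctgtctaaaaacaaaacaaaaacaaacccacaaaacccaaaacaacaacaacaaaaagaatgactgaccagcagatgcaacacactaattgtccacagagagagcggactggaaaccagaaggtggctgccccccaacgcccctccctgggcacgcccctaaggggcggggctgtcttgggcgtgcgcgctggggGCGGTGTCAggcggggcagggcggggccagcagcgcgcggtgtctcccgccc

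Both strands were searched for the E-box CACGTG, the antioxidant response element TGACNNNGC and the PU.1 core GAGGAAGT, motifs of factor families known from lysosomal, oxidative stress and myeloid genes. The printed Slc44a2 run held 1 match, on its reverse strand, at position 249 counted from its first base, so no matches overlapped in it. Slc44a2 has another listed start, which held none, and 12.4% of 32851 mouse promoters of the same length hold this motif. These letters were not in the Slc11a1 and Slc2a6 windows. Entries were found for 6 of the 8 members called in both tables, and among the others Slc29a1 held matches in some of its starts. The E-box occurs in 7.15% and the PU.1 core in 3.2% of those promoters. A match is a description of the sequence only.

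Zinc and copper carriers moved in both directions. Slc39a12, which encodes a zinc importer and is listed by 1 transcript per table, had no count in any repopulated library without fracture, 3 female and 2 male. Resident libraries without fracture had 2.33, 10.9, 1.61 and 6.65 CPM in the female table and 3.51, 4.03 and 3.28 CPM in the male table. Against a limit of 3 counts over the repopulated group, Slc39a12 was at least 98.8-fold lower in females and at least 27.7-fold lower in males (adjusted p = 0.02 and 0.047). Without 1 library these limits ranged from 64.9 to 123-fold in females, lowest without repopulated replicate 2 or 3 (65.9 without resident replicate 2), and from 13.7 to 28.4-fold in males, lowest without repopulated replicate 1 (14 without replicate 2). The female call was lost when any of the 3 repopulated libraries without fracture was left out (adjusted p up to 0.081), and the male call held in 5 of 17 omissions. With fracture Slc39a12 had 3.96, 6.26, 8.15 and 6.39 CPM in female resident libraries against 0, 2.16, 1.62 and 0.289 CPM. Every listed transcript has at least 10 counts in at least 8 female libraries. The 4 and 4 female resident libraries can meet this alone, and the 3 and 4 repopulated ones cannot. The female table could thus hold a carrier absent from repopulated microglia but none absent from resident ones. In males, where the minimum is 9 libraries, the reverse holds.

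Among males with fracture Slc39a4, a plasma membrane zinc importer, was higher in repopulated than in resident libraries. Resident libraries had 20.4, 22.2, 32.9, 20.5 and 23 CPM and repopulated ones a median of 35.1 CPM (28.9 to 47.7, n = 7). These groups overlapped. The change was 0.59 ± 0.17 (adjusted p = 0.046, held in 7 of 17 omissions, and 0.058 with library totals only) and over both states 0.70 ± 0.15 (adjusted p = 0.0034, held in every omission). Over both states the zinc importer Slc39a3 fell by 0.51 ± 0.16 (adjusted p = 0.034, held in 11 of 17 omissions). Slc39a4 and Slc39a3 differed by 0.51 ± 0.17 and −0.38 ± 0.12 in the female table and were not called there (adjusted p = 0.076 and 0.067). Called metal carriers outside the naming rule, picked after their values were seen, were Slc39a14, up by 0.39 ± 0.13, the copper importer gene Slc31a1, up by 0.32 ± 0.09, and Slc39a7, down by 0.22 ± 0.05, all in the male table over both states. These calls held in 5, 14 and 16 of 17 omissions, and that of Slc39a7 was lost without repopulated no fracture replicate 2 (adjusted p = 0.062). The first 2 of these were not called with library totals only (adjusted p = 0.093 and 0.076). The zinc exporter gene Slc30a1 was low, at 0.861 to 1.61 CPM (group means) in females and 4.84 to 8.43 CPM in males, and was not called.

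Sugars. Slc2a6, which encodes a hexose carrier of lysosomal membranes, had the largest rise of any called member with at least 5 CPM. Male libraries had 31.2, 26.5 and 19 CPM of Slc2a6 in resident and 172 and 194 CPM in repopulated libraries without fracture. With fracture it had 37.5, 24.3, 25.6, 33.1 and 34 CPM in resident libraries and 66.8 to 135 CPM in the repopulated ones (median 102.1, n = 7). All repopulated libraries were above all resident ones. Slc2a6 rose by 2.84 ± 0.26 without fracture (adjusted p = 3.1e-06) and by 1.79 ± 0.17 with fracture (adjusted p = 1.2e-05), in every omission of 1 library.

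Female Slc2a6 values were 119, 36.2, 77 and 42.1 CPM in resident and 131, 132 and 145 CPM in repopulated libraries without fracture, and 31.3, 35.1, 34.8 and 38.6 CPM against 96.1, 74.6, 62.6 and 75.4 CPM with fracture. The groups did not overlap in either state, although resident libraries without fracture spread widely. Slc2a6 rose over both states by 1.06 ± 0.21 (adjusted p = 0.0068), while the differences in the single states, 0.99 ± 0.31 and 1.14 ± 0.29, were not called (adjusted p = 0.13 and 0.062).

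The other sugar carriers gave few calls. Slc5a10, of a family of sodium-coupled sugar carriers and listed by 1 transcript, had 0.0528, 1.07, 3.71 and 2.9 CPM in female resident and 0, 0, 0.124 and 0 CPM in repopulated libraries with fracture. The groups overlapped by a single resident library, and counts this low give little precision. The fitted change of Slc5a10 was called with fracture (adjusted p = 0.031, held in 9 of 15 omissions) and over both states (adjusted p = 0.0062). Among males it was not called over both states (adjusted p = 0.052). The neuronal-type and ubiquitous glucose carriers Slc2a3 and Slc2a1 were not called, with changes of 0.41 ± 0.30 and 0.03 ± 0.08 in the female and 0.34 ± 0.59 and 0.20 ± 0.10 in the male table. Slc37a2, a sugar phosphate exchanger of the endoplasmic reticulum and abundant in macrophages, differed by 0.16 ± 0.06 and 0.02 ± 0.07 and was not called. Slc45a4, outside the naming rule, rose in the male table by 0.25 ± 0.08 (adjusted p = 0.049, held in 5 of 17 omissions, and 0.19 with library totals only).

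**Figure D3:**
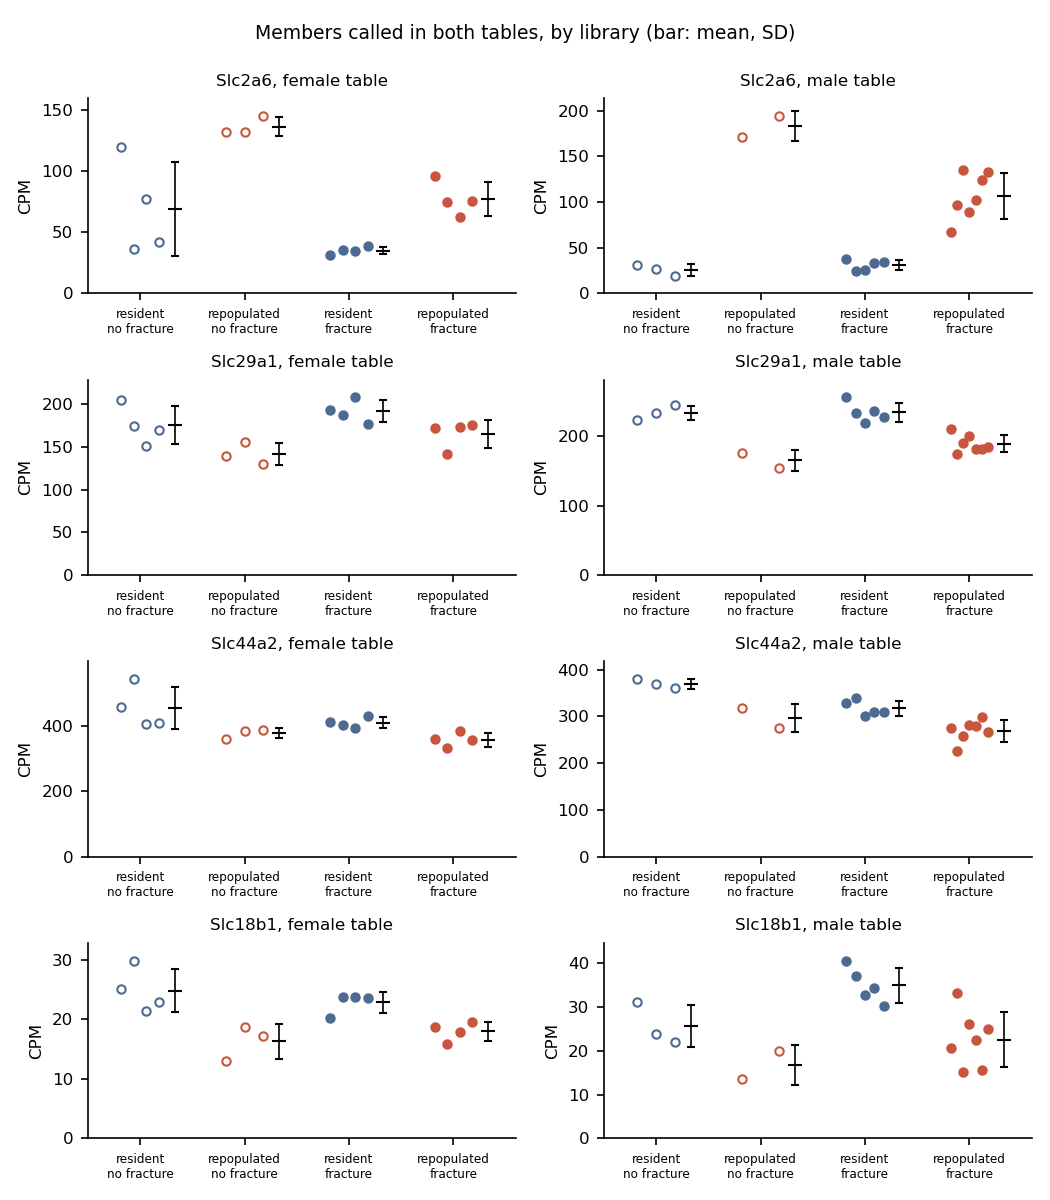
CPM of Slc2a6, Slc29a1, Slc44a2 and Slc18b1 in every library, by group, in the female table (left) and the male table (right). Points are libraries, open without and filled with fracture, and bars are the mean with its SD. Slc2a6 was higher and the other members were lower in repopulated microglia over both fracture states in both tables.

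Amino acids and peptides. Among male libraries 5 carriers of this class rose and 1 fell over both states. Slc1a5, which exchanges glutamine and other neutral amino acids, had 11.8, 11.4 and 5.22 CPM in male resident and 20.5 and 41 CPM in repopulated libraries without fracture. With fracture it had 12, 8.01, 6.08, 10 and 5.17 CPM against 10.2 to 21.1 CPM (median 15.5, n = 7). The groups were apart without fracture and overlapped with fracture. Slc1a5 rose by 1.71 ± 0.41 without fracture (adjusted p = 0.01), by 0.95 ± 0.27 with fracture (0.045) and by 1.33 ± 0.24 over both (0.00058). The call without fracture was lost without resident replicate 3 or repopulated replicate 2 (adjusted p up to 0.3), the call with fracture held in 8 of 17 omissions and stood at 0.051 with library totals only, and the call over both states held in all. Female values of Slc1a5 spread from 0.57 to 21.7 CPM within the resident group without fracture, and its change over both states, 1.08 ± 0.59, was not called (adjusted p = 0.34).

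Slc6a9, the glycine carrier GlyT1, had 6.22, 1.51 and 1.19 CPM in male resident and 10.8 and 8 CPM in repopulated libraries without fracture. With fracture it had 8.48, 2.97, 4, 1.39 and 3.34 CPM in resident libraries and 6.56 to 21.1 CPM in repopulated ones (median 12.1, n = 7). In each state the highest resident library was replicate 1, and it fell within the repopulated range only with fracture. Slc6a9 rose by 1.55 ± 0.44 with fracture (adjusted p = 0.046, held in 6 of 17 omissions) and by 1.58 ± 0.40 over both states (0.0091, held in all). Among females it differed by 0.27 ± 0.23 and was not called. An exon of its listed transcripts shares 1258 bases with Ccdc24 on the other strand, and no source states whether the libraries keep strand, so reads of these genes may be mixed. Shorter overlaps of this kind concern Slc5a10, Slc8a1, Slc25a10, Slc25a25, Slc29a1 and Slc38a10.

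The glutamate carrier gene Slc1a3 fell in the male table with fracture. It had 113, 123, 141, 128 and 147 CPM in resident and 80.1 to 112 CPM in repopulated libraries (median 91, n = 7), so that the groups were adjacent without overlap. The change was −0.43 ± 0.11 (adjusted p = 0.019), lost without resident fracture replicate 3 or 5 (adjusted p up to 0.076). Over both states it was −0.41 ± 0.10 in the male table (0.0091, lost without repopulated no fracture replicate 2, at 0.12) and −0.24 ± 0.11 in the female table, where it was not called (0.22). Slc7a6, a light chain of the exchangers of arginine-type amino acids, rose by 0.49 ± 0.14 over both states in the male table (adjusted p = 0.02), lost without resident no fracture or repopulated no fracture replicate 1 (up to 0.11). The family member Slc38a10 rose there in each state, by 0.42 ± 0.10 and 0.25 ± 0.07 (adjusted p = 0.012 and 0.035), and over both in every omission (0.33 ± 0.06, adjusted p = 0.00061). The calls in the separate states held in 15 and 11 of 17 omissions, the former lost without resident no fracture replicate 1 or repopulated no fracture replicate 2 (up to 0.18). The separate-state calls of Slc38a10 were not made with library totals only (adjusted p = 0.069 and 0.11). Slc15a3, a peptide and histidine carrier of lysosomes, rose by 0.34 ± 0.11 (adjusted p = 0.048, held in 6 of 17 omissions, and 0.1 with library totals only).

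The one female call in this class over both states was Slc38a6. It had 10.9, 13.7, 11.7 and 11.8 CPM in resident and 26.7, 15.8 and 19 CPM in repopulated libraries without fracture, which did not overlap. Slc38a6 rose by 0.77 ± 0.18 (adjusted p = 0.037, held in 7 of 15 omissions, and 0.057 with library totals only) and by 0.59 ± 0.12 over both states (0.0066, held in all). Among males its change of 0.92 ± 0.35 was not called (0.1).

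The heavy chain and its most abundant light chains gave no call. Slc3a2 differed by −0.02 ± 0.05 in females and −0.08 ± 0.06 in males, and Slc7a8, a large neutral amino acid exchanger, by −0.15 ± 0.05 and −0.14 ± 0.07. Slc7a7, which exports arginine-type amino acids in macrophages, differed by 0.10 ± 0.06 and 0.01 ± 0.07. Slc7a5, another light chain, ranged from 4.66 to 23.9 CPM between female group means, with an SD up to 26.9 CPM, and its male group means ran from 120 to 135 CPM, with differences of −1.13 ± 0.68 and −0.04 ± 0.12. The cystine importer Slc7a11 stood below 3 CPM in every group mean of both tables. Slc1a2, the main glutamate carrier of astrocytes, was listed in the female table only, with group means of 0.967 to 2.43 CPM, beside the low astrocyte sum given above.

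**Figure D4:**
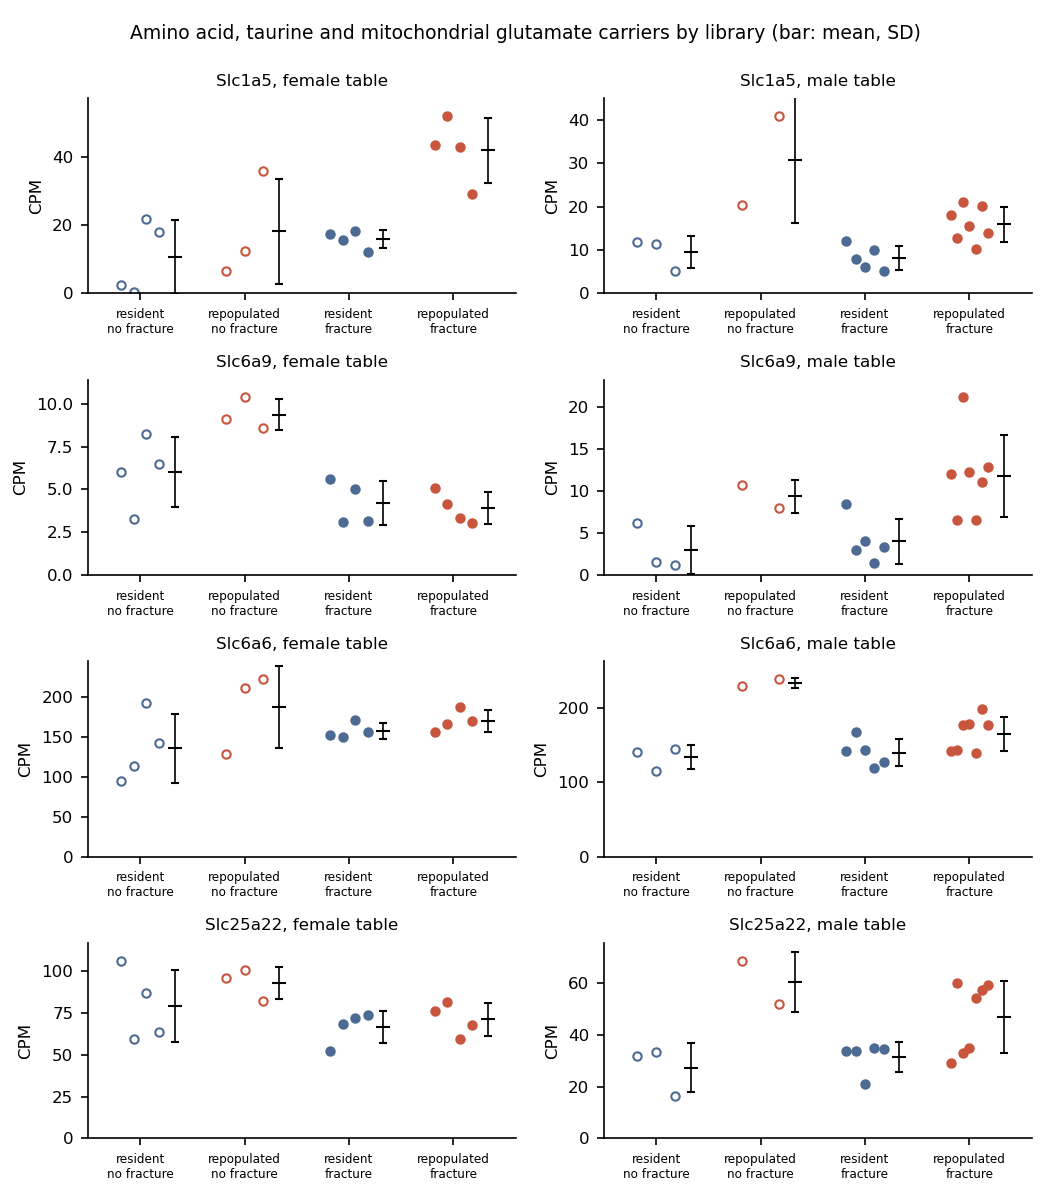
CPM of Slc1a5, Slc6a9, Slc6a6 and Slc25a22 in every library, by group, in the female table (left) and the male table (right). Points are libraries, open without and filled with fracture, and bars are the mean with its SD. These members were called higher in repopulated male microglia over both states, and none of them was called in females.

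Taurine and choline. Slc6a6, the taurine carrier, had 141, 116 and 145 CPM in male resident and 229 and 239 CPM in repopulated libraries without fracture, which did not overlap. Slc6a6 rose by 0.80 ± 0.15 without fracture (adjusted p = 0.0021) and by 0.52 ± 0.09 over both states (0.00042), in every omission. With fracture the resident libraries had 142, 167, 144, 120 and 127 CPM and the repopulated ones 140 to 198 CPM (median 177), and no call was made. Among females Slc6a6 differed by 0.29 ± 0.14 and was not called (0.28). The choline carrier gene Slc44a2 was lower in both tables. It had 457, 542, 404 and 407 CPM in female resident and 359, 383 and 388 CPM in repopulated libraries without fracture, and 412, 401, 392 and 430 CPM against 358, 332, 384 and 356 CPM with fracture. Male values were 380, 368 and 360 CPM against 318 and 275 CPM without fracture, and 329, 340, 301, 310 and 309 CPM against 225 to 299.7 CPM (median 276, n = 7) with fracture. No repopulated library reached the lowest resident one within a state.

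The fall of Slc44a2 over both states was small, −0.23 ± 0.06 in females and −0.28 ± 0.06 in males (adjusted p = 0.028 and 0.0037). The female call was lost without resident fracture replicate 1 or 4 or repopulated no fracture replicate 1 (up to 0.066), and the male call without repopulated no fracture replicate 2 (0.063). With fracture alone in the male table Slc44a2 fell by 0.24 ± 0.07 (0.041, held in 6 of 17 omissions).

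Nucleosides, vitamins and haem. Slc29a1, the equilibrative nucleoside carrier of the plasma membrane, had 223, 233 and 244 CPM in male resident and 176 and 154 CPM in repopulated libraries without fracture, and 256, 233, 218, 236 and 228 CPM against 174 to 211 CPM (median 185, n = 7) with fracture. The groups did not overlap. It fell by 0.50 ± 0.10 and 0.31 ± 0.06 (adjusted p = 0.0034 and 0.0057), the former lost without repopulated no fracture replicate 2 (0.099). Among females it fell over both states, by 0.26 ± 0.07 (adjusted p = 0.036, held in 6 of 15 omissions). The lysosomal counterpart Slc29a3, the member with the most counts in both tables, differed by 0.14 ± 0.05 and 0.13 ± 0.06 and was not called (adjusted p = 0.07 and 0.22).

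Slc46a1, the proton-coupled folate carrier, fell in the male table by 0.41 ± 0.12 without fracture (adjusted p = 0.035, held in 8 of 17 omissions) and by 0.27 ± 0.07 over both states (0.0096, lost without repopulated no fracture replicate 1, at 0.099). Slc46a3, a related carrier of lysosomes, had 159, 170, 160 and 174 CPM in female resident and 199, 204 and 197 CPM in repopulated libraries without fracture. These groups were apart and tight. Slc46a3 rose by 0.27 ± 0.06 (0.037, held in 5 of 15 omissions) and by 0.21 ± 0.04 over both states (0.0064, held in all), but not with library totals only (0.15 and 0.11). Slc49a4, a lysosomal membrane carrier, fell in the male table by 0.60 ± 0.16 without fracture and 0.43 ± 0.09 over both states (adjusted p = 0.023 and 0.003). The former call held in 13 of 17 omissions and was lost without resident no fracture replicate 1 or 3 or either repopulated library without fracture (up to 0.17), and the latter held in all. It was listed by 1 transcript in the female table, with group means of 4.78 to 6.09 CPM, and by 2 in the male table, and was not called in the former (0.8). Slc43a3, a purine base carrier, rose in the male table by 0.94 ± 0.27 (adjusted p = 0.024, lost without resident no fracture replicate 3 or repopulated no fracture replicate 2, at up to 0.11). Among females its difference had the opposite sign, −0.56 ± 0.23, and was not called (0.16).

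Carboxylates. Slc16a6, a monocarboxylate carrier, had 182, 240, 177 and 195 CPM in female resident and 154, 148 and 167 CPM in repopulated libraries without fracture, and 211, 200, 210 and 243 CPM against 170, 168, 186 and 189 CPM with fracture. All repopulated libraries were below all resident ones within a state. Slc16a6 fell over both states by 0.31 ± 0.07 in the female (adjusted p = 0.01) and by 0.38 ± 0.08 in the male table (0.0037), in every omission. An exon of its listed transcripts shares 1052 bases with Amz2 on the other strand. Slc16a3, which exports lactate, rose in the male table without fracture from 127, 99.6 and 101.8 CPM to 150 and 151 CPM, a change of 0.46 ± 0.14 (0.047, held in 9 of 17 omissions, and 0.1 with library totals only). Slc13a3, a sodium-coupled dicarboxylate carrier, had 22.5, 16.2, 16.6, 19.3 and 17.7 CPM in resident males with fracture and 4.03 to 12.3 CPM in repopulated ones (median 7.38, n = 7). The groups did not overlap. Slc13a3 fell by 1.25 ± 0.26 (adjusted p = 0.0052), in every omission. Without fracture male resident libraries had 9.84, 16.1 and 8.61 CPM and repopulated ones 10.2 and 11.2 CPM, with no call.

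Inorganic ions. The female table gave 2 calls over both states. Slc12a9, of the cation-chloride family, had 314, 327, 357 and 332 CPM in resident and 467, 418 and 414 CPM in repopulated libraries without fracture, which did not overlap. Slc12a9 rose by 0.38 ± 0.07 (adjusted p = 0.014, lost without repopulated no fracture replicate 1, at 0.077) and by 0.25 ± 0.05 over both states (0.0045, held in all). The sodium-calcium exchanger gene Slc8a1 fell over both states by 0.47 ± 0.14 (0.049, held in 5 of 15 omissions). The sodium-calcium-potassium exchanger gene Slc24a3 had 38.3, 42.5 and 41.2 CPM in male resident and 21.5 and 20.9 CPM in repopulated libraries without fracture. Slc24a3 fell by 0.94 ± 0.20 (adjusted p = 0.0041, lost without repopulated no fracture replicate 2, at 0.057) and by 0.67 ± 0.12 over both states (0.00032, held in all). Slc9a9, a proton exchanger of endosomes, fell in the male table by 0.33 ± 0.08 (0.0079, lost without repopulated no fracture replicate 2, at 0.1). Slc9a8, outside the naming rule, rose by 0.45 ± 0.13 (0.019, lost without the same library, at 0.22).

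Mitochondria, Golgi and vesicles. The 6 mitochondrial carriers called over both states, 3 in each table, were higher, and none was called in both. They were 7.9% of 38 female and 8.11% of 37 male members, no larger a share than the 8.52% and 12.8% of all genes. The glutamate carrier Slc25a22 had 32, 33.4 and 16.5 CPM in male resident and 68.7 and 52.1 CPM in repopulated libraries without fracture, and it rose by 1.16 ± 0.32 (adjusted p = 0.03, held in 14 of 17 omissions, and 0.054 with library totals only). Over both states Slc25a22 rose by 0.87 ± 0.19 (0.0037), the ATP-magnesium and phosphate exchanger Slc25a25 by 0.55 ± 0.12 (0.0031) and the dicarboxylate carrier Slc25a10 by 0.69 ± 0.19 (0.018). The first 2 held in every omission, and Slc25a10 was lost without resident or repopulated no fracture replicate 2 (up to 0.17).

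Among females the phosphate carrier Slc25a3, the pyrimidine nucleotide carrier Slc25a36 and Slc25a45 rose over both states by 0.25 ± 0.07, 0.20 ± 0.05 and 0.19 ± 0.05 (adjusted p = 0.033, 0.03 and 0.037). They held in 7, 7 and 4 of 15 omissions and were not called with library totals only (0.15, 0.25 and 0.3). Slc25a36 had 135, 143, 135 and 129 CPM in resident and 193, 170, 176 and 169 CPM in repopulated libraries with fracture, a rise of 0.39 ± 0.07 (0.014, lost without repopulated fracture replicate 1, at 0.062). The GDP-fucose carrier of the Golgi, Slc35c1, had 66.6, 67.5, 73.1 and 55.9 CPM in female resident and 71.1, 85.9 and 83.7 CPM in repopulated libraries without fracture, and 59.3, 62, 58.4 and 61 CPM against 75.3, 81.5, 72 and 79.4 CPM with fracture. The groups were apart with fracture and overlapped without it. Slc35c1 rose over both states by 0.32 ± 0.07 (adjusted p = 0.0073), in every omission.

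Slc18b1, a vesicular polyamine carrier, was lower in both tables. Female values were 25, 29.9, 21.4 and 23 CPM in resident and 13, 18.7 and 17.3 CPM in repopulated libraries without fracture, and 20.3, 23.8, 23.7 and 23.6 CPM against 18.6, 15.8, 17.8 and 19.6 CPM with fracture. The groups did not overlap within a state. Slc18b1 fell over both states by 0.48 ± 0.11 in the female (adjusted p = 0.014, held in all omissions) and 0.62 ± 0.17 in the male table (0.018, lost without resident or repopulated no fracture replicate 1, at up to 0.15). With fracture alone the male fall was 0.63 ± 0.18 (0.046, held in 5 of 17 omissions). The urea carrier gene Slc14a1, outside the naming rule, was called lower in the male table over both states (adjusted p = 0.039, held in 7 of 17 omissions), with 3.91, 4.53 and 4.66 CPM against 0.427 and 0 CPM without fracture.

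Fracture. Neither resident nor repopulated microglia showed a called member for fracture against no fracture, and no member was called for the interaction of repopulation and fracture, in either table. Of all genes 0.0% were called in each of these 3 comparisons in the female table, and 0.00833% in the male table, which is 1 gene. At an unadjusted p under 0.05 by edgeR the female table had 4, 28 and 6 members for resident, repopulated and interaction. The male table had 4, 19 and 11. The share of all genes under this threshold was not set beside them, so these counts are no result about members in particular. DESeq2 called Slc8a1 and Slc39a12 in female repopulated microglia, Slc6a6 and Slc2a6 in male repopulated microglia and Slc2a6 for the male interaction, and 0 members elsewhere. With only the compared groups in the fit, 2 members were called in female repopulated microglia, Slc2a6 and Slc8a1.

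These members were chosen after their values were seen. Slc8a1 had 30.7, 25 and 26.2 CPM in female repopulated libraries without fracture and 49.2, 43.8, 50.9 and 61.8 CPM with fracture, which did not overlap. Its difference was 0.92 ± 0.21 (edgeR adjusted p = 0.29, DESeq2 0.021, and 0.033 with only these groups). Male repopulated libraries gave no call, with 31.4 and 29.7 CPM without and 26.9 to 49.6 CPM with fracture. The Slc2a6 values given above were lower with fracture than without in repopulated libraries of both tables. The differences were −0.82 ± 0.31 in the female (adjusted p = 0.42) and −0.78 ± 0.21 in the male table (0.3). On average Slc2a6 was also lower with fracture in female resident libraries, but not in male resident ones. The male interaction was −1.05 ± 0.30 (edgeR 0.38, DESeq2 0.045). Slc6a6 differed by −0.50 ± 0.13 in male repopulated libraries (edgeR 0.29, DESeq2 0.031). All male libraries without fracture have label numbers in the range 64 to 79. In both states those with fracture fall partly in this range and partly in 99 to 110. What these numbers stand for is not stated. Fracture and number range thus partly go together in the male table.

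The tables were compared with each other by signs and calls only. Of the 181 members in both, 129 (71.3%) had the same sign of the change over both states, beside 65.9% of 11672 genes. Across members Spearman's rho was 0.498, beside 0.437 for all genes, and Pearson's r was 0.796, with no value computed for all genes. Both are a description, since the points share libraries. Pearson's r depends on extreme values, and 0.796 includes Slc39a12 (female −6.09, male −5.81) and Slc5a10 (female −4.22, male −3.14), which had low counts. Pearson's r without these members was not computed. Slc11a1, Slc16a6, Slc18b1, Slc29a1, Slc2a6, Slc39a12, Slc40a1 and Slc44a2 were called in both tables in the same direction. These 8 were 47.1% of the 17 female and 25% of the 32 male calls. In all, 42 members were called in at least 1 comparison of repopulated with resident microglia. Neither the calls shared by the tables nor this count was computed for all genes. They are thus no result about members in particular. Whether effects differ between the tables was not tested.

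**Figure D5:**
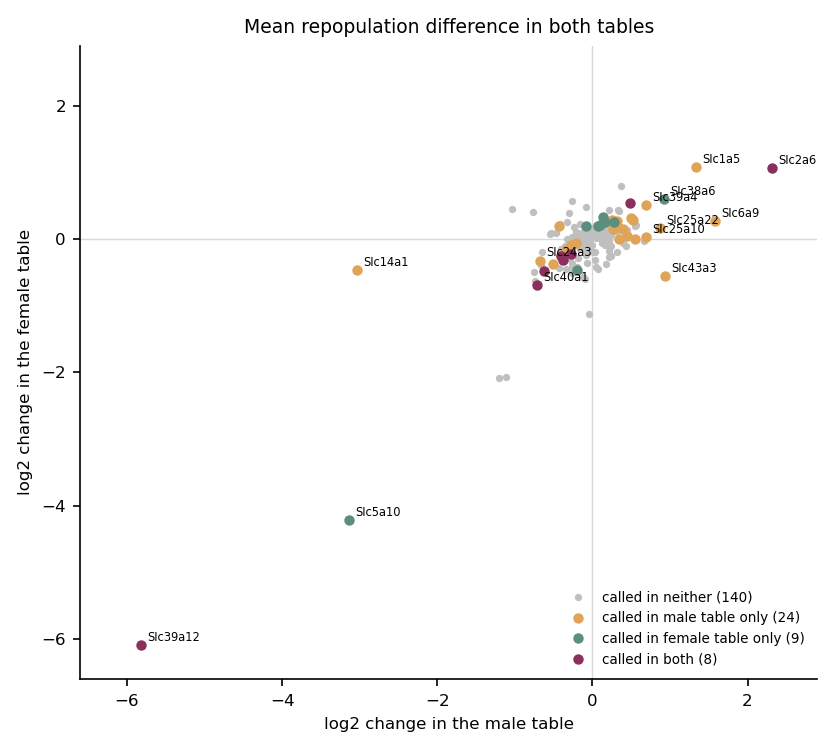
Log2 change from resident to repopulated over both fracture states in the male table (x axis) and in the female table (y axis) for the 181 members in both. Colours give the tables in which a member was called. The 8 members called in both lie in the lower left and upper right quadrants.

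Levels were compared between members only per transcript length, on a TPM scale from GENCODE M21 lengths. On this scale the mean over female libraries was highest for the mitochondrial ADP/ATP carrier Slc25a5 (910), followed by Slc11a1 (665), Slc29a3 (578), Slc3a2 (420) and Slc7a8 (354). The male order was Slc25a5 (792), Slc3a2 (702), Slc11a1 (492.6), Slc29a3 (395) and Slc35b2 (308), the carrier of the sulphate donor of the Golgi. The median member stood at 20.0 and 20.7. Female libraries ranged from 837 to 1031 for Slc25a5 and from 522 to 895 for Slc11a1, so these 2 overlapped, as did Slc11a1 and Slc29a3 (534 to 651). The place of Slc11a1 depended on the group, since its female group means were 601 and 553 in resident and 799 and 739 in repopulated microglia, where Slc29a3 had 581 and 587 and 597 and 551 (without and with fracture). By class, mitochondrial carriers held 23.4% of the members' summed level in females and 19.2% in males, amino acid carriers 16.3% and 19.5%, and metal carriers 14.9% and 14.6%. Slc40a1 ranked 20th and 19th, at 147 and 139.

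Carriers whose symbols do not begin with Slc and a digit were listed from general knowledge, and 29 of 36 symbols were in each table. Among the symbols not found, Dirc2 and Pqlc1 are older names of the members Slc49a4 and Slc66a2. Over both states 3 were higher and 2 lower in the female table and 5 were higher and 2 lower in the male table, which is 17.2% and 24.1% beside 8.52% and 12.8% of all genes. The organic anion carriers Slco4a1 and Slco2b1 fell in both, by 0.47 ± 0.08 and 0.22 ± 0.06 in the female and by 0.61 ± 0.12 and 0.33 ± 0.05 in the male table. Spns1, a lysosomal phospholipid carrier, rose by 0.27 ± 0.06 and 0.28 ± 0.08. Mfsd12, a carrier of lysosomes, rose in the male table by 0.78 ± 0.12, with 0.34 ± 0.45 and no call in the female table. Of 14 Slc carriers listed as lysosomal, 13 were in each table. Over both states Slc11a1 and Slc46a3 rose in the female table and Slc11a1 and Slc15a3 in the male table (15.4% of each 13), none of the other listed ones was called, and the list's median was 0.12 and −0.06. The list does not hold Slc2a6 and Slc49a4, which are described above as lysosomal. Of 18 partner and regulator genes, 13 were in the female table with 0 called by edgeR (3 at an unadjusted p under 0.05), and 15 in the male table with Mtf1 and Tfe3 called lower (−0.73 ± 0.24 and −0.19 ± 0.06).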

How the data were processed

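The authors deposited estimated counts per transcript from RNA-seq of sorted microglia, with females and males in separate tables. GRCm38 and the following tools appear in the submitters' processing notes, with no role or annotation release: STAR 2.7.6a, RSEM 1.3.1, cutadapt 3.4, Trim Galore 0.6.7, FastQC 0.11.9, R 4.1.3, DESeq2 1.34.0 and MultiQC 1.11. The deposited estimated counts are whole numbers, and every listed transcript has at least 10 counts in at least 8 female or 9 male libraries, so rarer carriers cannot appear. A carrier present only in female repopulated or only in male resident libraries cannot appear either. Per the labels' protocols, a company made the female libraries from ultra-low input RNA, and the male ones were made with SMART-Seq v4 and Nextera Flex.

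Counts were summed to genes. All genes of a table entered 1 model with its 4 groups, by edgeR 4.0.16 under R 4.3.3 (TMM, robust quasi-likelihood F test, Benjamini-Hochberg over all genes of a comparison, called below 0.05). Standard errors (SE) are the absolute log2 change over the root of the F statistic. The script was tested on simulated data. Depth was 16438827 to 18654165 counts per female and 5722993 to 33697535 per male library, and intervals and limits of 3 counts cover counting error only. No 2 libraries held identical values. The alternatives were library totals only, DESeq2 size factors, DESeq2 1.42.0, a mean of at least 5 CPM, the replicate block, only the groups compared, the number range in the male labels as a covariate, and leaving out each library.

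The members, classes and lists were chosen with earlier results of these data known. Named members are those called (all where a direction has at most 12 calls, otherwise the 10 with the largest change at 5 CPM or more), the 2 with the highest mean CPM per class, and a panel. Not every member of the last kinds is described. Transcript lengths came from GENCODE M21 (matched for 34309 of 34865 female and 27891 of 28345 male transcripts), and promoters from RefSeq.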

Additional observations from a re-analysis of the deposited data

Results flagged for a closer look

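Among 35 called members, 175 groups of 4 to 7 libraries were examined for a library far from the others of its group, and 14 held one. Chance alone flags about 1 in 20 groups. In female resident libraries without fracture, replicate 4 stood apart at 14.6 CPM for Slc13a3 (others 7.78 to 8.87), 47.6 CPM for Slc25a25 (8.06 to 14.2) and 63.3 CPM for Slc8a1 (36.8 to 40.4). In the same group replicate 2 stood apart at 385.5 CPM for Slc25a45 (315 to 321), 219 CPM for Slc46a1 (164 to 168) and 324 CPM for Slc9a9 (225 to 241). In female resident libraries with fracture, replicate 1 had 20.3 CPM of Slc18b1 (23.6 to 23.8) and 15.1 CPM of Slc38a6 (13.2 to 13.3). In female repopulated libraries with fracture, replicate 2 had 141 CPM of Slc29a1 (172 to 176), and replicate 3 had 0.124 CPM of Slc5a10 where the others had 0. In male resident libraries with fracture, replicate 3 had 20.9 CPM of Slc25a22 (33.7 to 34.8) and 32.9 CPM of Slc39a4 (20.4 to 23), and replicate 1 had 27.4 CPM of Slc8a1 (39.4 to 41.7). In male repopulated libraries with fracture, replicate 7 had 2.67 CPM of Slc39a12 (0 to 0.823).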

How the results depend on the processing

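None of the named calls turned direction under the alternatives run. DESeq2 kept all 80 named calls and called 9, 7 and 24 members in the female and 21, 17 and 36 in the male table (without fracture, with fracture, both). For fracture it called 2 members in female and 2 in male repopulated microglia, and 1 for the male interaction. With only the groups compared, 0 members were called in the female table without fracture and 10 with fracture, and 2 for fracture in repopulated microglia, and 13 of 37 named calls were lost. Library totals only lost 15 of 80 named calls, and the number range as a covariate 4 of 53. The cause was not tested.

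The labels' replicate numbers showed no pairing of the samples. For same-numbered libraries of different groups, deviations of log2 CPM from the group mean were correlated. The correlations were −0.312 to 0.211 over 21 female and −0.078 to 0.0496 over 17 male pairs. Their medians were −0.0117 and −0.00987, beside 0.00715 and 0.00159 for pairs with different numbers. With the replicate block 3, 3 and 11 members were called in the female and 12, 6 and 26 in the male table, and 26 of 80 named calls were lost.

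Leaving out 1 library gave 1 to 12, 1 to 6 and 11 to 24 called members in the female and 4 to 15, 5 to 12 and 19 to 34 in the male table, and 0 to 1 for fracture in male repopulated microglia. The lowest counts came without female repopulated no fracture replicate 1 or without repopulated or resident fracture replicate 1, male repopulated no fracture replicate 2 and resident fracture replicate 5. Groups of 2 to 7 libraries limit what small changes can be seen.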
